A study of Mus musculus with 12 samples.

Results

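Collagen genes were compared between mouse totipotent potential stem (TPS) cells and extended pluripotent stem (EPS) cells. Members were the protein-coding genes whose symbol in the GENCODE M21 annotation of GRCm38 has the form Col, a type number, a and a chain number, after the version was removed from the gene identifiers. There were 44 such genes among the 55401 genes in the count tables: 11 encode chains of fibrillar collagens, 8 encode chains of basement membrane collagens and 25 encode other collagens. Bulk polyadenylated RNA of 3 TPS lines and 3 EPS lines had been sequenced, each line as 2 technical replicates, which gave 12 libraries. TPS cells were kept on feeder cells in a medium that the labels call VCED in 4C basic medium and that the study's methods describe as the CPEC condition, which combines CD1530 (an agonist of the retinoic acid receptor RARγ), VPA (an inhibitor of histone deacetylases), EPZ004777 (an inhibitor of DOT1L) and CHIR-99021 (an inhibitor of GSK3). EPS cells were kept on feeder cells in LCDM medium. The feeders named for TPS cells were mouse embryonic fibroblasts inactivated with mitomycin C, and the sources used here do not say whether they were removed before RNA extraction. TPS lines can be made from EPS cells, ES cells or 2-cell embryos, and the origin of each sequenced line is not given in the sources used here.

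Collagens are extracellular proteins whose chains wind around each other into stiff rods. Fibrillar collagens (types I, II, III, V and XI, with the minor types XXIV and XXVII) pack side by side into the banded fibrils of connective tissue, and fibroblasts are their best known source. Type IV collagen forms the sheet-like network of basement membranes, with the proteoglycan-like collagens XV and XVIII at its edge. The other collagens decorate fibrils, form beaded filaments or short-chain networks, anchor epithelia or span the cell membrane. In the early mouse embryo, the endoderm layers that lie on a basement membrane are known for making type IV collagen.

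Lines held between 29877215 and 38466294 counts in TPS and between 33591638 and 35811697 in EPS cells. Expression values are CPM, which scale a gene's counts to the line's total after TMM normalization, and the line was the replicate (n = 3 in each group). Nothing says whether the lines of a group were cultured apart in time, so p-values measure the spread between these lines. Totipotency markers followed the labels: the 5 genes on that list (Zscan4c, Zscan4d, Zfp352, Tcstv1 and Tcstv3) had sums of 110, 121 and 150 CPM in TPS lines 1 to 3, against 0.0653, 0.0588 and 0.0853 CPM in EPS lines 1 to 3. The 6 pluripotency genes (Pou5f1, Nanog, Sox2, Esrrb, Klf4 and Zfp42) were detected in every line and summed to 1611 to 1935 CPM in TPS and 3146 to 3972 CPM in EPS lines.

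EPS line 1 and TPS line 1 stood apart from the other lines of their groups in collagen expression. EPS line 1 was the lowest EPS line for 24 of the 38 collagens tested, or 63.2%, against 36.5% of all genes tested. TPS line 1 was the highest TPS line for 23 of the 38, or 60.5%, against 36.2% of all genes. The technical replicates of EPS lines 3 and 1 differed most over all genes, with chi-squares per degree of freedom of 24.3 and 10.4 against 2.68 to 4.06 in the other lines. Col1a1 was at 315 and 431 CPM in the replicates of EPS line 3 and at 109 and 58.9 CPM in those of EPS line 1, and Col26a1 was at 5.8 and 1.3 CPM in those of EPS line 3. Counts of genes called are given below also with lines left out.

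Collagen mRNA was higher in TPS than in EPS cells. The sum over the 44 genes was 7609, 4705 and 4679 CPM in TPS lines 1, 2 and 3, against 623, 1715 and 1831 CPM in EPS lines 1, 2 and 3. Every TPS line was above every EPS line, and the group medians differed 2.74-fold. Collagen took 0.793%, 0.499% and 0.493% of all counts in the TPS lines and 0.0568%, 0.164% and 0.18% in the EPS lines. TPS lines 2 and 3 lay close together with TPS line 1 above them, and EPS lines 2 and 3 lay close together with EPS line 1 below them.

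Of the 38 collagens with enough counts to be tested, 20 were higher in TPS lines and 0 were lower (edgeR's quasi-likelihood test, Benjamini-Hochberg adjusted p under 0.05 over 17468 genes). At an unadjusted p under 0.05, 25 were higher and 0 lower, and DESeq2 and limma-voom likewise called 0 lower. The share of tested collagens called higher was 52.6%, beside 14.4% of all genes tested, of which 7.34% were called lower. The filter on low counts asks for 0.28 CPM by library total in at least 3 lines. Of the 38 collagens, 27 reached it in every line, and 15 of these were called higher. The remaining 11 reached it in every TPS line but not in every EPS line, 2 of them (Col6a6 and Col8a2) in no EPS line. Of the 11, 5 were called higher: Col4a6, Col6a5, Col6a6, Col8a2 and Col25a1. As the filter needs 3 lines, the 11 passed it only with the help of the TPS lines. These 5 calls, which the other counts given here include, are thus no independent support for a difference. At the same threshold on each class, 6 of 11 fibrillar, 4 of 5 basement membrane and 10 of 22 other collagens were higher, or 54.5%, 80% and 45.5%. Every TPS line was above every EPS line for 26 of the 38 collagens, against 23.5% of all genes tested. The median log2 fold change of TPS over EPS lines was 2.11 over the tested collagens, 2.33 in the fibrillar, 2.46 in the basement membrane and 1.39 in the other class, beside -0.00 over all genes. The fitted difference was above 0 for 36 collagens and below 0 for 2, Col5a3 and Col9a3, neither of which passed the test. The count higher was 20 without EPS line 1 and 14 without TPS line 1, and it was also 14 without EPS line 2. No test was made of a difference between the classes.

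**Figure D1:**
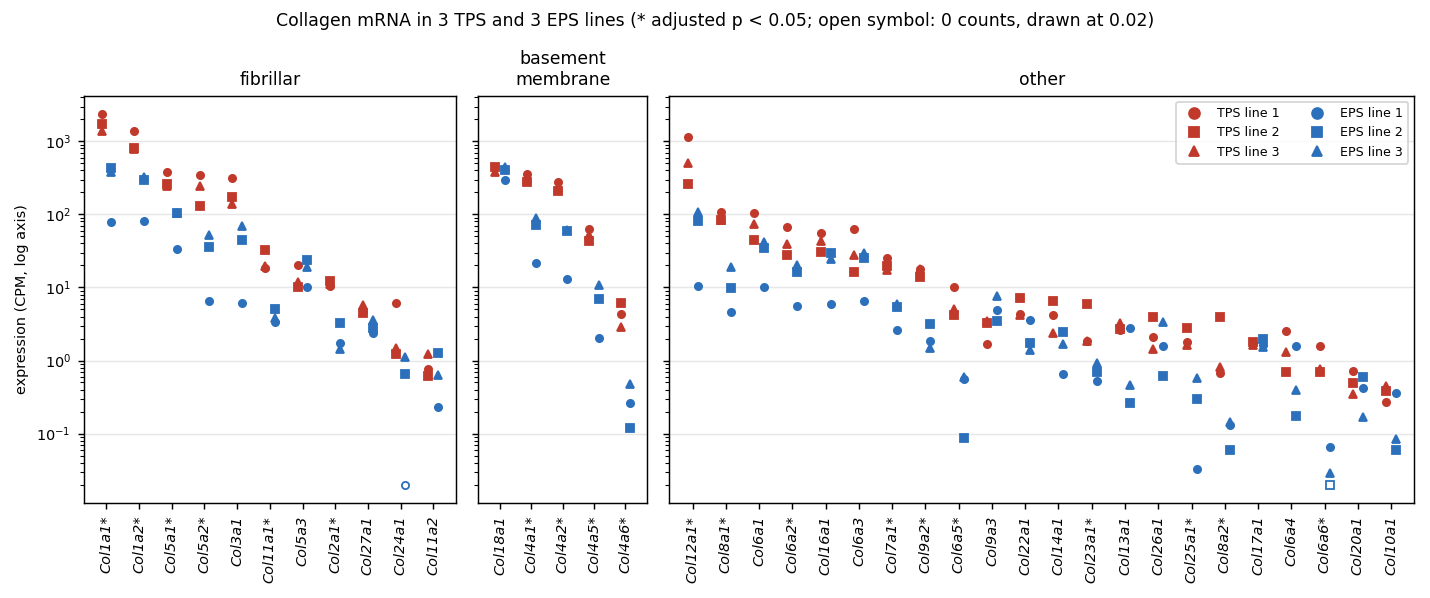
Expression of the 38 tested collagen genes in CPM on a log axis, by class, with 1 symbol for each of the 3 TPS lines (red) and 3 EPS lines (blue); an asterisk marks an adjusted p under 0.05 in edgeR, and an open symbol a line with 0 counts, drawn at 0.02. Red symbols lie above all blue symbols for 26 of the 38 genes, and Col18a1 has the groups side by side between 294 and 448 CPM.

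Most markers of fibroblasts, the feeder cell type, were also called higher in TPS lines, but their sums did not follow the collagen sums in every line. Of 10 fibroblast markers (Prrx1, Twist1, Twist2, Thy1, Pdgfrb, Lum, Dcn, Postn, Fbn1 and Fap), 7 were higher in TPS lines and 0 lower, beside 14.4% and 7.34% of all genes tested, and their median log2 fold change was 2.02. The number called higher was 3 without EPS line 1, 3 without TPS line 1, 2 without TPS line 3, 1 without EPS line 2, 4 without EPS line 3 and 7 without TPS line 2. Their sum was 1463, 355 and 825 CPM in TPS lines 1 to 3, against 111, 354 and 423 CPM in EPS lines 1 to 3. TPS line 1 was thus the highest and EPS line 1 the lowest for both these markers and collagen. TPS line 2 was below EPS line 3 for the markers (355 and 423 CPM) but above it for collagen (4705 and 1831 CPM). The sum weighs abundant genes most. Between TPS line 2 and EPS line 2, with sums of 355 and 354 CPM, the markers went both ways. Dcn was at 42.7 and 128 CPM and Lum at 3.39 and 7.79 CPM. Postn was at 137 and 129 CPM, Thy1 at 42.1 and 32.1 CPM and Prrx1 at 40.9 and 25.6 CPM. Pdgfrb was at 25.3 and 6.62 CPM, Fbn1 at 44.2 and 17.9 CPM and Twist1 at 14.9 and 4.65 CPM. Twist2 was at 3.47 and 1.94 CPM and Fap at 1.68 and 0.0588 CPM. Fap was at 0 in EPS line 1, and Lum, Dcn and Postn overlapped between the groups. The part of feeder RNA in the collagen differences was not tested, and in these bulk samples fewer cells of a type and less RNA per cell cannot be told apart.

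Of 9 primitive endoderm markers (Gata4, Gata6, Sox7, Sox17, Dab2, Foxa2, Cubn, Amn and Pdgfra), 6 were higher in TPS lines and 0 lower, and 4 to 6 were higher with each line left out. The counts here and for the next lists stand beside 14.4% of all genes called higher and 7.34% called lower. Their sum was 123, 64.2 and 101 CPM in TPS and 19.9, 24.9 and 32 CPM in EPS lines, without overlap. For the fibroblast and primitive endoderm lists, 0 were lower at an unadjusted p under 0.05, in DESeq2 or in limma-voom as well. Gata4 was between 2.79 and 6.65 CPM in TPS and between 4.5 and 7.08 CPM in EPS lines, and Sox7 overlapped as well. Pdgfra and Dab2 are also made by fibroblasts and weighed much in the sums. In TPS lines 1 to 3, Dab2 was at 51.4, 18.8 and 31.1 CPM and Pdgfra at 49, 12.5 and 31.2 CPM. Of the 9 markers, these alone were highest in TPS line 1, so the place of that line in the sum came from them. Of 6 smooth muscle markers 4 were tested and 3 were higher (Acta2, Cnn1 and Myh11), the number called was 3 with each line left out, and the sums were 84.8, 388 and 142 CPM in TPS and 22.9, 20.8 and 27.8 CPM in EPS lines, with Myocd at 0 in every EPS line. Myh11 passed the filter on low counts through the TPS lines alone. TPS line 2 was highest for this list. Of 7 endothelial markers 4 were tested, Tie1 and Kdr were higher and Tek lower (0 to 2 higher and 0 to 1 lower with each line left out), Emcn was at 0 in every line, and the sums were 19.7 to 23 CPM in TPS and 27.6 to 36.7 CPM in EPS lines. Tie1 overlapped between the groups, at 0.349 CPM in TPS line 1 and 0.457 CPM in EPS line 1. The part of cells of these types in the collagen values was not tested.

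**Figure D2:**
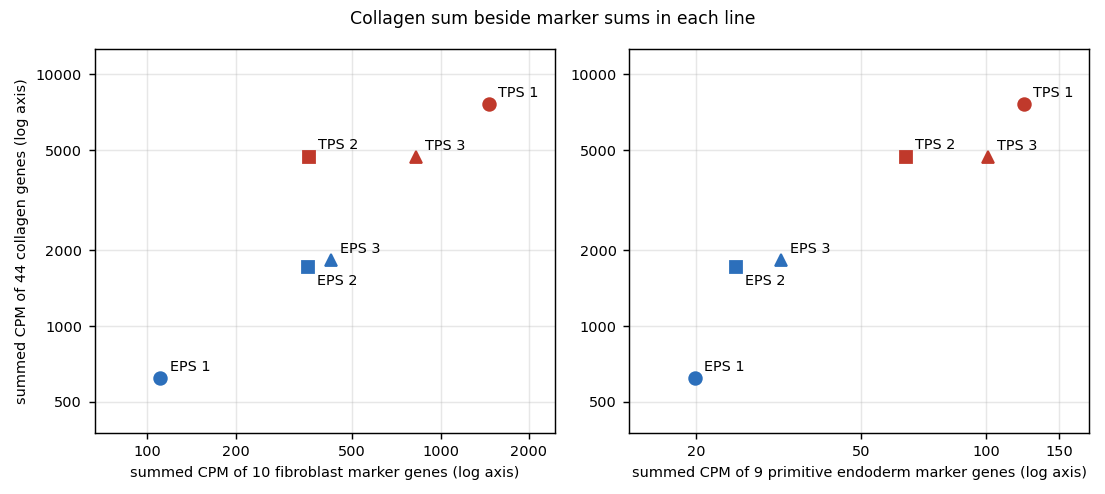
Summed CPM of the 44 collagens (log axis) against summed CPM of 10 fibroblast markers (left) and 9 primitive endoderm markers (right, log axes) in each line; symbols give the line number, red for TPS and blue for EPS. TPS line 1 and EPS line 1 hold the extremes on both axes. The fibroblast sums overlap between the groups while the primitive endoderm sums do not. Dab2 and Pdgfra, also made by fibroblasts, hold 51.4 and 49 of the 123 CPM of the primitive endoderm sum in TPS line 1.

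Among the fibrillar collagens, the chains of type I collagen, the main fibril of skin, tendon and bone, had the highest levels per kilobase in TPS lines. Col1a1 (chr11:94936224-94953042, plus strand) was at 2360, 1738 and 1385 CPM in TPS lines 1 to 3 and at 79.4, 433 and 378 CPM in EPS lines 1 to 3. The lowest TPS line was well above the highest EPS line, and the log2 fold change was 2.62 (SE 0.572, adjusted p = 0.0178). Its partner Col1a2 (chr6:4504814-4541544, plus strand) was at 1368, 817 and 794 CPM in TPS and at 81.2, 298 and 329 CPM in EPS lines, with a log2 fold change of 2.07 (SE 0.497, adjusted p = 0.0246). Both chains were lowest in EPS line 1 and highest in TPS line 1.

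Type V collagen, which nucleates type I fibrils and sets their width, was higher in TPS lines for Col5a1 and Col5a2. Col5a1 was at 382, 258 and 243 CPM in TPS and at 34, 105 and 103 CPM in EPS lines (log2 fold change 1.87, SE 0.415, adjusted p = 0.019). Col5a2 was at 343, 130 and 246 CPM in TPS and at 6.46, 35.7 and 52.2 CPM in EPS lines (2.93, SE 0.702, adjusted p = 0.0245). For Col5a2 the spread between EPS lines was 7.97-fold, against 2.64-fold between TPS lines. The remaining type V chain, Col5a3, did not follow: it was at 20.5, 10.3 and 11.9 CPM in TPS and at 10.2, 23.8 and 19.2 CPM in EPS lines, and the groups overlapped (log2 fold change -0.32, adjusted p = 0.58).

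Col3a1, the chain of type III collagen of vessels and other stretchable tissues, was at 311, 172 and 140 CPM in TPS and at 6.1, 44.5 and 69.1 CPM in EPS lines. The groups did not overlap, but EPS lines spread 11.2-fold, and the log2 fold change of 2.38 (SE 0.747) missed the threshold with an adjusted p of 0.0575. Without EPS line 1 it passed, at a log2 fold change of 1.84 and an adjusted p of 0.0313, and without EPS line 3 the log2 fold change was 3.02. DESeq2 and limma-voom called it with all 6 lines (adjusted p = 0.0455 and 0.0354).

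Among the fibrillar chains known from cartilage, Col2a1 and Col11a1 were called higher in TPS lines. Col2a1, the main cartilage collagen, was at 10.6, 12.3 and 11.2 CPM in TPS and at 1.73, 3.27 and 1.42 CPM in EPS lines (log2 fold change 2.41, SE 0.363, adjusted p = 0.00576). Col11a1, which forms the core of cartilage fibrils, was at 18.2, 32.5 and 19.9 CPM in TPS and at 3.33, 5 and 3.81 CPM in EPS lines (2.54, SE 0.303, adjusted p = 0.00291). EPS line 1 was not set apart in these genes, and neither call was lost when any line was left out. Col11a2, the partner of Col11a1, was between 0.621 and 1.21 CPM in TPS and between 0.228 and 1.26 CPM in EPS lines, which overlapped (adjusted p = 0.772). Of the list of 7 cartilage markers, 5 were tested, Acan and Sox9 were higher and Matn1 lower (0 to 1 higher and 0 to 1 lower with each line left out), beside 14.4% and 7.34% of all genes, and the list summed to 26.1, 32.7 and 27.8 CPM in TPS and 21.6, 13.3 and 7.85 CPM in EPS lines. The part of any cartilage-like cells in the Col2a1 and Col11a1 values was not tested.

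The minor fibrillar chains did not pass the test. Col27a1 was at 4.62, 4.45 and 5.75 CPM in TPS and at 2.35, 2.79 and 3.53 CPM in EPS lines, without overlap (log2 fold change 0.77, adjusted p = 0.101). Col24a1 was at 6.21, 1.22 and 1.49 CPM in TPS and at 0, 0.647 and 1.11 CPM in EPS lines (2.33, adjusted p = 0.169), and its log2 fold change was 1.19 without TPS line 1, 1.73 without EPS line 1 and 3.15 without EPS line 3. Among the called fibrillar genes, Col1a2 lost its call without TPS line 1 or EPS line 2 (highest adjusted p 0.0685), Col5a1 without TPS line 1 (0.0542) and Col5a2 without TPS line 1, TPS line 3 or EPS line 2 (0.0737). The number of fibrillar collagens called higher was thus 3 without TPS line 1, 4 without EPS line 2 and 7 without EPS line 1.

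Since many collagens moved together, their promoters were read from RefSeq windows of GRCm38.p6 that run from 250 bases before to 50 bases after the start of a gene in RefSeq, and 35 of the 44 genes had one. That start lay within 50 bases of the gene start in GENCODE for 25 of the 35. The window of Col1a2 is shown because it belongs to the most abundant called fibrillar chain with an entry. It lies at chr6:4505368-4505667 on the plus strand, where the RefSeq start lies 804 bases downstream of the GENCODE start of the gene given above, and is printed 5′ to 3′, with matches to CCAAT or GGGCGG on either strand in capitals.
Col1a2 promoter: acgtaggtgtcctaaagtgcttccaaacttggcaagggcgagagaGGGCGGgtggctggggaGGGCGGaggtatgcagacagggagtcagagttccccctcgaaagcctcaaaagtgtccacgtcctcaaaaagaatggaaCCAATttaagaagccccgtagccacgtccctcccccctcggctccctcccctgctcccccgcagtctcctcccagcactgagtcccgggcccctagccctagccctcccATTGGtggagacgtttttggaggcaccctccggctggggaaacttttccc
The window holds both motifs, each at 2 places, and no match to TATAAA. As it is placed by the RefSeq start, it does not show whether the gene has a TATA box outside it. The letters GGGCGG form the core of the GC box, which Sp family factors bind. The CCAAT box was searched as those 5 letters and the TATA box as TATAAA. The letters AGGTCA are the half-site of nuclear receptors, retinoic acid receptors included. On either strand, GGGCGG was found in 22 of the 35 collagen windows, or 62.9%. That was the case for 16 of 16 windows of collagens called higher and 6 of 19 windows of collagens not called or not tested. The 19 include the untested Col4a4, Col9a1, Col15a1, Col19a1 and Col28a1, which lack it. The called Col1a1, Col2a1, Col5a2 and Col12a1 had no window, and the RefSeq start of Col25a1 lay 49344 bases downstream of its GENCODE start. Over all genes, GGGCGG was found in 35.7% of 32851 windows, 61.9% of those of tested genes and 57.5% of those of all genes called higher. TATAAA was found in 5 of the 35 (Col3a1, Col10a1, Col11a2, Col13a1 and Col17a1), 0 of them called higher, beside 13.6% of all windows, 7.74% of those of tested genes and 11% of those of all genes called higher. CCAAT was found in 12 of the 35, or 34.3%, beside 37.4% of all windows, 39.1% of those of tested genes and 37.4% of those of all genes called higher. AGGTCA was found in 8 of the 35, or 22.9%, and in 4 of the 16 windows of collagens called higher, beside 16.3% of all windows, 12.4% of those of tested genes and 12.8% of those of all genes called higher. The direct repeat of this half-site with a spacer of 5 bases (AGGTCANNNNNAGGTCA) was found in 0 of the 35 and in 3 of all windows. The median GC content was 60% in collagen windows and 52.7% in all windows. These matches describe letters in the windows and are not measurements of binding. A motif outside a window was not counted, so a missing match does not mean that the promoter lacks the motif.

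The type IV collagens of basement membranes rose together in 4 of the 6 chain genes. Col4a1 was at 353, 276 and 302 CPM in TPS lines 1 to 3 and at 21.4, 72.3 and 90 CPM in EPS lines 1 to 3 (log2 fold change 2.34, SE 0.465, adjusted p = 0.0133). Col4a2, which joins Col4a1 in the common type IV molecule, was at 282, 210 and 232 CPM in TPS and at 13, 58.4 and 60.5 CPM in EPS lines (2.46, SE 0.515, adjusted p = 0.0158). TPS lines lay within 1.28-fold and 1.34-fold of each other for these genes, while EPS lines spread 4.19-fold and 4.63-fold.

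Col4a1 (chr8:11198423-11312826, minus strand) and Col4a2 (chr8:11312805-11449287, plus strand) stand head to head and overlap by 22 bases at their starts, so that a single stretch of DNA serves as the promoter of both. Their RefSeq windows share 78 bases. Both are shown, 5′ to 3′ on the strand of each gene, because the chains they encode are made together, with capitals for the same motifs: Col4a1 at chr8:11312777-11313076 and Col4a2 at chr8:11312555-11312854.
Col4a1 promoter: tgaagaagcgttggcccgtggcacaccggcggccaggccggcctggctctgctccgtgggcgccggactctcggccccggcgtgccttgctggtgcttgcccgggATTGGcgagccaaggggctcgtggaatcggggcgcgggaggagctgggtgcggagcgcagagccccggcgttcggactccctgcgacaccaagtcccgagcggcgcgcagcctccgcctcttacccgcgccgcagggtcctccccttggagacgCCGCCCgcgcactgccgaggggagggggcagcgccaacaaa
Col4a2 promoter: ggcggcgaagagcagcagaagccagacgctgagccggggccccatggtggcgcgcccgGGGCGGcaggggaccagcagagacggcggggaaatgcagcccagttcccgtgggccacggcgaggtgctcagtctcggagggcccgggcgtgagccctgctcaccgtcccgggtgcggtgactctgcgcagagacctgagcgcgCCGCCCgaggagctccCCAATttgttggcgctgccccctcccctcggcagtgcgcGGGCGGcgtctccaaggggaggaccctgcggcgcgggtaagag
The Col4a1 window holds GGGCGG at 1 place and the Col4a2 window at 3 places, each has 1 CCAAT box and neither has a match to TATAAA. GC content was 74% and 73.7%.

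The chains Col4a5 and Col4a6, which meet in the type IV network of smooth muscle and skin basement membranes, had log2 fold changes of 3.01 and 3.92. Col4a5 (chrX:141475385-141689234, plus strand) was at 63.6, 42.9 and 52.9 CPM in TPS and at 2.06, 7 and 10.7 CPM in EPS lines (log2 fold change 3.01, SE 0.526, adjusted p = 0.00886). Col4a6 (chrX:141165403-141474076, minus strand) was at 4.27, 6.06 and 2.89 CPM in TPS and at 0.261, 0.118 and 0.484 CPM in EPS lines (3.92, SE 0.572, adjusted p = 0.00509), and its log2 fold change was 4.52 without EPS line 3. Col4a6 reached the filter's minimum in 1 EPS line only, so its test is no independent support for the difference. Col4a5 and Col4a6 also stand head to head, 1308 bases apart. The remaining type IV pair, Col4a3 and Col4a4, known from kidney glomeruli, stands 71 bases apart and had too few counts to be tested: Col4a3 had 1, 0 and 4 counts in TPS and 0, 3 and 0 in EPS lines, and Col4a4 had 4, 7 and 6 counts in TPS and 2, 1 and 3 in EPS lines. In addition, 563 bases of Col4a3 exons overlap a transcript on the opposite strand.

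Col18a1, the basement membrane collagen that is cut to release endostatin, was abundant in both groups without a clear difference between them. It was at 448, 446 and 384 CPM in TPS and at 294, 404 and 439 CPM in EPS lines, and the groups overlapped (log2 fold change 0.17, SE 0.174, adjusted p = 0.521). Without EPS line 1 the difference was -0.01 on the log2 scale. Col15a1, its relative, had 36, 5 and 6 counts in TPS and 0, 5 and 4 in EPS lines and was not tested. The count of basement membrane collagens called higher was 4 whichever line was left out, Col4a6 included.

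**Figure D3:**
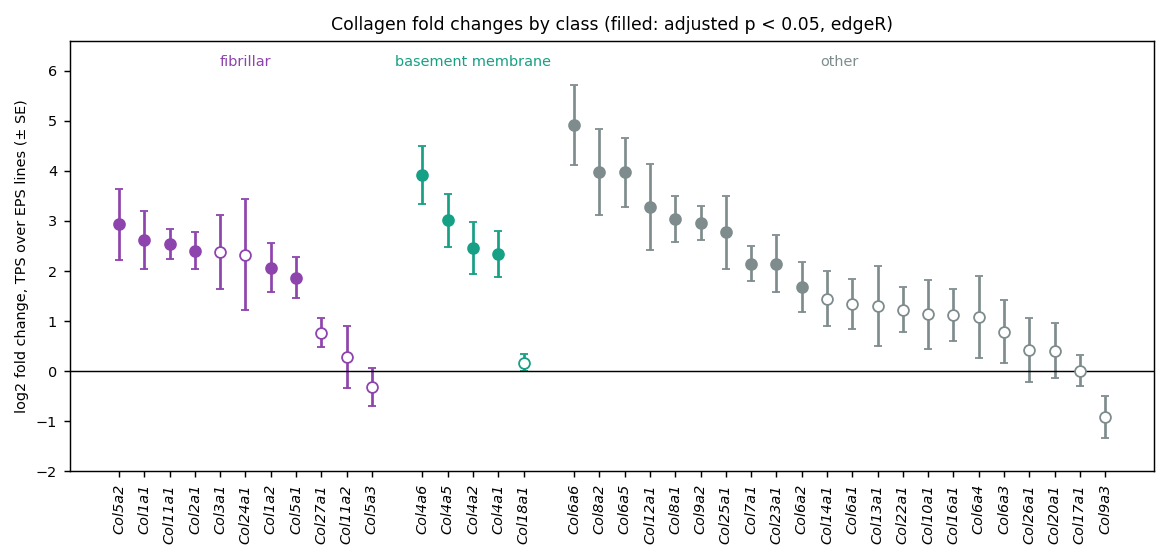
Log2 fold change of TPS over EPS lines (± SE, edgeR, 3 lines a group) for the 38 tested collagens, ordered within each class; filled symbols have an adjusted p under 0.05. All 4 tested type IV chains lie above 2 on this scale while Col18a1 lies at 0.17, and Col5a3 and Col9a3 are the genes below 0.

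Among the other collagens, those that coat fibrils (the 9 FACIT collagens) took the most counts, with sums of 1241, 326 and 586 CPM in TPS and 27.8, 123 and 144 CPM in EPS lines, most of them from Col12a1 in all lines but EPS line 1. Col12a1, which bridges type I fibrils and is made in tissues under load, was at 1154, 264 and 513 CPM in TPS lines 1 to 3 and at 10.5, 82.4 and 107 CPM in EPS lines 1 to 3. The groups did not overlap, although TPS lines spread 4.37-fold and EPS lines 10.1-fold, and the log2 fold change was 3.27 (SE 0.858, adjusted p = 0.033). Col14a1, its close relative, was at 4.24, 6.45 and 2.41 CPM in TPS and at 0.653, 2.47 and 1.68 CPM in EPS lines, which overlapped (1.45, adjusted p = 0.102, and 0.0306 in DESeq2). Col16a1 was at 56.3, 30.8 and 43.6 CPM in TPS and at 5.87, 29.4 and 24.8 CPM in EPS lines (1.12, adjusted p = 0.164). Col22a1, known from tissue junctions such as that of muscle and tendon, was at 4.27, 7.14 and 4.22 CPM in TPS and at 3.59, 1.71 and 1.39 CPM in EPS lines (1.23, adjusted p = 0.0871), and passed without EPS line 1 (1.72, adjusted p = 0.0366) and in DESeq2 (adjusted p = 0.024).

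Of the chains of type IX collagen, the FACIT of cartilage fibrils, Col9a2 alone was called. Col9a2 was at 18.1, 13.9 and 17.7 CPM in TPS and at 1.83, 3.12 and 1.48 CPM in EPS lines, and its log2 fold change of 2.95 (SE 0.339) had the smallest adjusted p among the collagens, 0.00261. Col9a3 went the other way without passing the test, at 1.7, 3.24 and 3.52 CPM in TPS and 4.96, 3.44 and 7.54 CPM in EPS lines (log2 fold change -0.91, adjusted p = 0.153). A stretch of 234 bases of Col9a3 exons overlaps exons of Tcfl5 on the opposite strand, which had 5715 counts over the 6 lines against 838 for Col9a3, and whether strand was used in counting is not given in the sources used here. Col9a1 had 44, 7 and 21 counts in TPS and 0, 2 and 0 in EPS lines and did not pass the filter, and the ratio of its summed counts, scaled to the groups' totals after TMM, was 32.6 with a counting interval of 8.7 to 274. Col19a1 had 2, 2 and 0 counts in TPS and 1, 0 and 0 in EPS lines. Col20a1 was between 0.349 and 0.724 CPM in TPS and between 0.171 and 0.588 CPM in EPS lines, which overlapped, and 79 bases of its exons are shared with another gene on the same strand that had 625 counts against 98.

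Type VI collagen forms beaded filaments around cells, and its common chains are Col6a1, Col6a2 and Col6a3. Col6a1 was at 103, 44.5 and 73 CPM in TPS and at 10.3, 34.9 and 41.8 CPM in EPS lines (log2 fold change 1.34, SE 0.505, adjusted p = 0.096, and 0.0236 in DESeq2). Col6a2 was at 67.2, 27.7 and 39.8 CPM in TPS and at 5.51, 16.5 and 20.1 CPM in EPS lines (1.68, SE 0.498, adjusted p = 0.0486). Col6a3 was at 62.5, 16.4 and 28.1 CPM in TPS and at 6.43, 25.7 and 29.7 CPM in EPS lines, which overlapped (0.79, adjusted p = 0.398, and a log2 fold change of 0.11 without TPS line 1). Of these, Col6a2 alone passed the test, and it did so narrowly: it lost the call when any line but TPS line 2 was left out (highest adjusted p 0.14). It was also not called with technical replicate 2 of each line alone (adjusted p = 0.0638).

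Of the 3 chains that can take the place of Col6a3, Col6a5 and Col6a6 were called higher and Col6a4 was not. Col6a5 was at 10.3, 4.19 and 5.11 CPM in TPS and at 0.555, 0.0882 and 0.597 CPM in EPS lines (log2 fold change 3.97, SE 0.69, adjusted p = 0.00877). It reached the filter's minimum in 2 EPS lines only, so its test is no independent support for the difference. Col6a6 was at 1.6, 0.699 and 0.762 CPM in TPS and at 0.0653, 0 and 0.0284 CPM in EPS lines, from 115 counts in all TPS and 3 in all EPS lines. Its ratio on the same scale was 34.7 with a counting interval of 11.6 to 171, and its adjusted p was 0.00697. Its fitted log2 fold change moved from 4.92 to 5.81 without EPS line 1. It was 3.89 with technical replicate 1 alone and 7.20 with technical replicate 2 alone. Since it passed the filter on low counts through the TPS lines alone, its test is no independent support for the difference. Col6a4, the neighbour of Col6a5 on chromosome 9, was at 2.57, 0.699 and 1.3 CPM in TPS and at 1.6, 0.176 and 0.398 CPM in EPS lines, and these overlapped (1.08, adjusted p = 0.376). The log2 fold change of Col6a4 was 2.36 without EPS line 1 and 0.47 without TPS line 1, and it was not called in either case.

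Type VIII collagen, a short-chain network collagen of vessel walls and of the membrane beneath the corneal endothelium, has 2 chains, Col8a1 and Col8a2. Col8a1 was at 107, 84.5 and 84.2 CPM in TPS and at 4.63, 9.8 and 19 CPM in EPS lines (log2 fold change 3.04, SE 0.464, adjusted p = 0.00598), and its log2 fold change was 3.65 without EPS line 3. Col8a2 was at 0.674, 3.88 and 0.825 CPM in TPS and at 0.131, 0.0588 and 0.142 CPM in EPS lines (3.98, SE 0.863, adjusted p = 0.0175), and TPS line 2 was 5.15-fold above the lowest TPS line after 0.1 CPM was added to each. It too passed the filter on low counts through the TPS lines alone, so its test is no independent support, and the call was lost without EPS line 1 or 2. Col10a1, the network collagen of hypertrophic cartilage, was at or under 0.444 CPM in every line, and its groups overlapped. Col7a1, which forms the fibrils that anchor epithelia, was at 25.6, 19.5 and 17.4 CPM in TPS and at 2.64, 5.44 and 6 CPM in EPS lines (2.15, SE 0.344, adjusted p = 0.00688). The 5 stratified epithelium markers (Krt5, Krt14, Krt15, Trp63 and Dsg3) had too few counts to be tested and summed to between 0.603 and 2.64 CPM in TPS and between 0.256 and 0.5 CPM in EPS lines.

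Of the 4 transmembrane collagens, 2 were called higher. Col23a1 was at 1.85, 5.88 and 1.84 CPM in TPS and at 0.522, 0.706 and 0.91 CPM in EPS lines (log2 fold change 2.15, adjusted p = 0.0334). Col25a1, which motor axons need to reach muscle, was at 1.8, 2.8 and 1.65 CPM in TPS and at 0.0326, 0.294 and 0.569 CPM in EPS lines (2.77, adjusted p = 0.0346). With 2 EPS lines at the filter's minimum, the test of Col25a1 is no independent support for the difference. Col13a1 was at 2.64, 2.74 and 3.27 CPM in TPS and at 2.81, 0.265 and 0.455 CPM in EPS lines, so EPS line 1 matched the TPS lines (1.30, adjusted p = 0.275), and it passed without that line (2.96, adjusted p = 0.0149). Col17a1, part of the hemidesmosomes of skin, did not differ beyond its spread, with 1.62 to 1.79 CPM in TPS and 1.51 to 1.97 CPM in EPS lines. Col26a1 was at 1.43 to 3.91 CPM in TPS and 0.618 to 3.33 CPM in EPS lines, and Col28a1, with 16, 5 and 8 counts in TPS and 0, 2 and 2 in EPS lines, was not tested. A count of 0 in a line allows up to 3 counts, by counting error only.

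Within the other collagens, several calls were lost with fewer lines. Col8a2 lost its call without EPS line 1 or 2 (highest adjusted p 0.0637), at log2 fold changes of 2.72 (without TPS line 2) to 4.37 over the 6 fits with a line left out. Col12a1 lost it without TPS line 1 or 3 or EPS line 2 or 3 (0.0856), at 2.54 (without TPS line 1) to 3.77. Col23a1 lost it without TPS line 2 or any EPS line (0.0962), at 1.36 (without TPS line 2) to 2.43, and it was not called in limma-voom (adjusted p = 0.0559) or with technical replicate 1 of each line alone (0.0507). Col25a1 lost it without any TPS line or EPS line 2 (0.101), at 2.23 to 3.60 (without EPS line 3), and it was not called with technical replicate 2 alone (0.0808). The number called higher was 6 without EPS line 2, 7 without TPS line 1 and 9 without EPS line 1.

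The make-up of the collagen mRNA was compared as well as its amount. Fibrillar collagens took 63.4%, 67.5% and 61.1% of collagen counts in TPS lines 1 to 3 and 36.1%, 55.6% and 52.5% in EPS lines 1 to 3. Basement membrane collagens took 15.1%, 20.9% and 20.8% in TPS and 53.2%, 31.6% and 32.8% in EPS lines. Neither pair of ranges overlapped, and other collagens took 21.4%, 11.6% and 18.1% in TPS and 10.7%, 12.8% and 14.7% in EPS lines, which overlapped. Scaled to gene length, the fibrillar and basement membrane shares again did not overlap between the groups, with fibrillar shares of 65.4%, 66.5% and 60.8% in TPS and 31.4%, 52.6% and 48.9% in EPS lines. With 3 lines in each group, an exact two-sided permutation test cannot give a p below 0.1, and the shares were not tested.

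**Figure D4:**
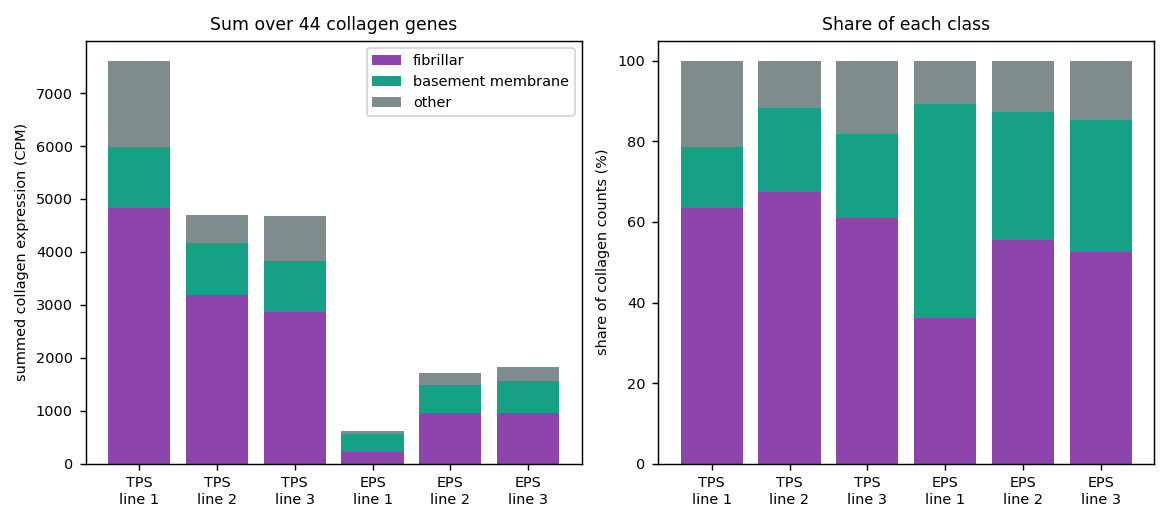
Left, summed expression of the 44 collagen genes in CPM, stacked by class, in each TPS and EPS line; right, the share of collagen counts in each class in percent. TPS bars reach 4679 to 7609 CPM and EPS bars 623 to 1831 CPM, and the basement membrane share is 53.2% in EPS line 1 and at most 20.9% in TPS lines.

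Col18a1 carried much of the basement membrane share in EPS cells. It took 47.2%, 23.6% and 24% of collagen counts in EPS lines 1 to 3 and 5.88%, 9.49% and 8.21% in TPS lines 1 to 3, while its CPM overlapped between the groups. Levels of different genes were compared as CPM per kilobase of exon. In TPS lines the highest medians on this scale were 265 for Col1a1, 65.7 for Col1a2, 63.6 for Col18a1, 40.4 for Col4a1 and 35 for Col4a2. In EPS lines they were 57.6 for Col18a1 and 57.6 for Col1a1, then 24 for Col1a2, 12.1 for Col5a1 and 9.69 for Col4a1. Col1a1 led in every TPS line, at 360, 265 and 211, and Col1a2 was above Col18a1 in each of them, at 110, 65.7 and 63.9 against 63.8, 63.6 and 54.7. The gaps depend on the length used: per kilobase of the longest transcript they were 256, 153 and 148 against 80, 79.8 and 68.6, and Col4a2, at a median of 35.9, then had rank 7 in place of rank 5 in TPS lines. In EPS lines Col18a1, at 41.9, 57.6 and 62.5, and Col1a1, at 12.1, 66 and 57.6, crossed between lines. In EPS line 1 Col18a1 was well above Col1a1, and in EPS line 2 Col1a1 was the higher.

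Chains that share a molecule were compared with each other per kilobase. The ratio of Col1a1 to Col1a2, which combine as a pair of the former with 1 of the latter in type I collagen, was 3.27, 4.03 and 3.3 in TPS lines 1 to 3 and 1.85, 2.75 and 2.17 in EPS lines 1 to 3, without overlap. Its size depends on the length used: with the longest transcript in place of all exons, it was 1.56, 1.92 and 1.57 in TPS and 0.882, 1.31 and 1.03 in EPS lines, still without overlap. The ratio of Col4a1 to Col4a2 overlapped between the groups, at 1.11, 1.16 and 1.15 in TPS and 1.46, 1.1 and 1.32 in EPS lines. The ratio of Col5a1 to Col5a2 was 1.26, 2.24 and 1.12 in TPS and 5.95, 3.32 and 2.23 in EPS lines, with TPS line 2 just above EPS line 3. With the longest transcript, this ratio was 0.877, 1.56 and 0.78 in TPS and 4.15, 2.32 and 1.56 in EPS lines. Col5a1 was then the lower of the chains in TPS lines 1 and 3. The ratio of Col6a1 to Col6a2 was lower in all TPS lines, at 2.9, 3.05 and 3.48, than in EPS lines, at 3.57, 4.02 and 3.96. With the longest transcript, it was 1.83, 1.92 and 2.19 in TPS and 2.25, 2.54 and 2.49 in EPS lines, still without overlap.

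Collagens need a set of enzymes and chaperones, and a list of 81 partner genes, of which 76 were tested, was examined for the same contrast. On it 28 genes were higher and 3 lower, beside 14.4% and 7.34% of all genes tested, and the median log2 fold change was 1.26. The counts were 21 higher and 2 lower without EPS line 1 and 18 and 2 without TPS line 1, and 18 to 31 and 2 to 4 over all 6 lines left out in turn. Of 19 genes that modify and fold the chains, 7 were higher and 1 lower (median 0.87), and 5 to 7 and 0 to 1 with each line left out. Colgalt2, which adds galactose to hydroxylysine, was at 3.04, 4.87 and 4.03 CPM in TPS and at 0, 0.206 and 0.0569 CPM in EPS lines (log2 fold change 5.42, adjusted p = 0.0051), and it passed the filter on low counts through the TPS lines alone, so that its test is no independent support. With 9 counts in all EPS lines, its log2 fold change was 6.87 without EPS line 2. Its relative Colgalt1 was lower, at 87.6, 104 and 86 CPM in TPS and 160, 164 and 122 CPM in EPS lines (-0.69, adjusted p = 0.0214). P3h2, a prolyl 3-hydroxylase that acts on type IV collagen, was at 1.9, 3.34 and 2.6 CPM in TPS and at 0.196, 0.147 and 0.427 CPM in EPS lines (3.32, adjusted p = 0.00624). P4ha2, a catalytic subunit of the prolyl 4-hydroxylase that makes the helix stable, rose by 1.63 on the log2 scale (adjusted p = 0.00698). Serpinh1, the collagen chaperone HSP47, singled out after its values were seen, was at 355, 620 and 376 CPM in TPS and at 138, 165 and 236 CPM in EPS lines (1.33, adjusted p = 0.0157).

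Among 13 genes for the trimming and cross-linking of secreted collagen, 12 were tested, 7 were higher and 1 was lower (median 1.78), and 3 to 7 and 1 with each line left out. Adamts2, which removes the amino-terminal propeptide of fibrillar collagens, was at 28.8, 6.55 and 12 CPM in TPS and at 1.37, 3.97 and 3.53 CPM in EPS lines (log2 fold change 2.42, adjusted p = 0.0302). The log2 fold change of Adamts2 was 1.65 without TPS line 1, and limma-voom did not call it (adjusted p = 0.0576). Loxl2, a lysyl oxidase that cross-links type IV collagen, was at 236, 216 and 131 CPM in TPS and at 22.9, 50.7 and 38.3 CPM in EPS lines (2.38, adjusted p = 0.00453). Tll1, a relative of the carboxy-terminal proteinase Bmp1, rose by 2.23 on the log2 scale (adjusted p = 0.0441), and by 2.90 without EPS line 3. Lox itself, singled out after its values were seen, was at 865, 297 and 574 CPM in TPS and at 36.9, 206 and 171 CPM in EPS lines and missed the threshold (2.07, adjusted p = 0.0516). Pcolce2, an enhancer of carboxy-terminal trimming, fell by 1.44 on the log2 scale (adjusted p = 0.0125), from 31.5, 45.9 and 30.5 CPM in EPS to 16.3, 8.78 and 14.5 CPM in TPS lines.

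Of 12 genes for collagen breakdown and its control, 11 were tested, 5 were higher and 0 lower (median 1.62), and 3 to 7 were higher with each line left out. Mmp8, a collagenase, was at 38.3, 7.17 and 12.7 CPM in TPS and at 0.489, 1.74 and 1.79 CPM in EPS lines (log2 fold change 3.85, adjusted p = 0.0126), and its log2 fold change was 2.88 without TPS line 1. Mrc2, the receptor that takes up collagen fragments, had a log2 fold change of 2.82 (adjusted p = 0.0126) and Timp3, an inhibitor bound to the matrix, one of 2.44 (adjusted p = 0.0161). Of 9 collagen receptors, 8 were tested and 3 were higher (median 1.22), and 1 to 3 with each line left out. Itga11, the integrin chain for fibrillar collagen on fibroblasts, was at 10.6, 3.52 and 2.89 CPM in TPS and at 0, 0.647 and 0.569 CPM in EPS lines (3.78, adjusted p = 0.0347), and its log2 fold change was 2.96 without TPS line 1 and 3.19 without EPS line 1. Ddr2, a receptor kinase for fibrillar collagen, was at 60.6, 16.9 and 43.3 CPM in TPS and at 6.49, 12 and 16.6 CPM in EPS lines (1.78, adjusted p = 0.0402), without a call in limma-voom (adjusted p = 0.076). Itgb1, the shared integrin chain, rose by 1.33 on the log2 scale (adjusted p = 0.00313).

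Of 16 non-collagen genes of basement membranes, 15 were tested, 1 was higher and 1 was lower, beside 14.4% and 7.34% of all genes, and the median log2 fold change was 0.13. With each line left out, 0 to 3 were higher and 1 to 2 lower. No test was made of a difference from the type IV chains. Lamb1, a laminin chain, rose by 0.77 on the log2 scale (adjusted p = 0.0333). Lama1, the laminin chain of the earliest embryonic basement membranes, fell by 1.83 on the log2 scale (adjusted p = 0.00457), from 176, 125 and 107 CPM in EPS to 30.1, 50.6 and 34.3 CPM in TPS lines. Hspg2 and Nid1, the perlecan and nidogen that tie laminin to type IV collagen, were singled out after their values were seen and overlapped between the groups (0.31 and 0.13, adjusted p = 0.407 and 0.747). Of 12 genes whose products bind collagen fibrils, 11 were tested, 5 were higher and 0 lower (median 1.71), and 3 to 5 were higher with each line left out. Ogn, a small leucine-rich proteoglycan, was at 2.79, 0.932 and 1.27 CPM in TPS and at 0.0979, 0.206 and 0.0853 CPM in EPS lines (log2 fold change 3.65, adjusted p = 0.00854), and like Colgalt2 it passed the filter through the TPS lines alone. Without TPS line 1 the log2 fold change of Ogn was 3.04. Prelp, of the same family, had a log2 fold change of 3.50 (adjusted p = 0.0207), which was 4.77 without EPS line 3, and Fbn2, the fibrillin of embryonic microfibrils, one of 3.40 (adjusted p = 0.00353). In the lists of breakdown, receptors and fibril binding, 0 genes were lower at an unadjusted p under 0.05, and DESeq2 and limma-voom also called 0 lower.

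**Figure D5:**
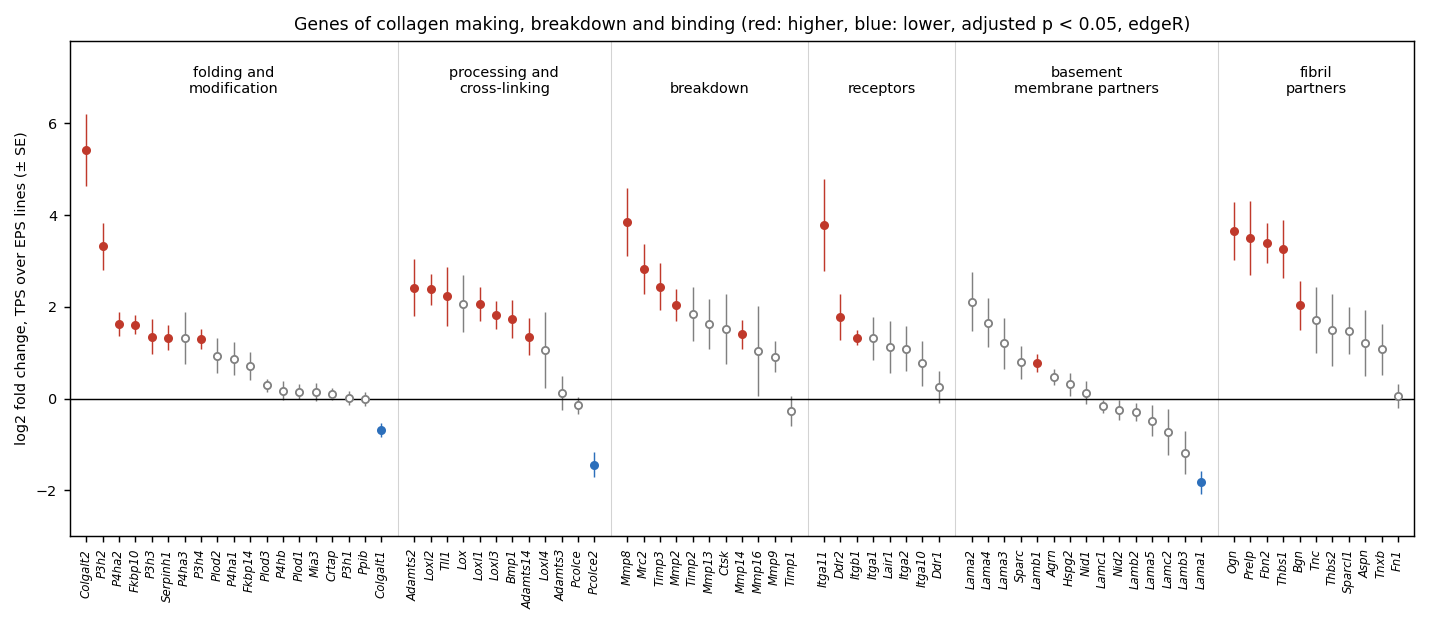
Log2 fold change of TPS over EPS lines (± SE, edgeR, 3 lines a group) for the 76 tested partner genes in 6 lists; red marks genes called higher and blue genes called lower at an adjusted p under 0.05. The list of basement membrane partners is centred near 0, with Lama1 at -1.83, while the other lists hold 3 to 7 genes called higher each.

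Of the named partner genes, Colgalt1, Adamts2, Tll1, Itga11, Ddr2 and Lamb1 each lost their call when any of 4 or 5 of the 6 lines was left out (highest adjusted p 0.0774 to 0.125), and so did Prelp without EPS line 2 or TPS line 3 (0.0727) and Timp3 without EPS line 2 (0.0535). Colgalt1 was also not called with technical replicate 1 of each line alone (0.0613), nor were Tll1 and Ddr2 with technical replicate 2 alone.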

How the data were processed

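RNA of 3 TPS and 3 EPS lines was sequenced as paired-end reads from oligo(dT)-enriched libraries. Per the labels, the authors trimmed reads with fastp 0.19.7, mapped them with STAR 2.7.3a to mm10 (GRCm38) and deposited raw read counts for each gene without normalization. The counting tool, annotation release, use of strand and handling of multi-mapping reads are not given in the sources used here. PCR copies could not be told from molecules, so counting intervals (95%) and floors cover counting error only.

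Of 55401 gene identifiers, 55141 matched GENCODE M21 without their version and 54349 with it, as did 41 of the 44 members. Library totals were 13676051 to 21821707 counts. The technical replicates of each line were more different than sampling noise gives (chi-square per degree of freedom 2.68 to 24.3), so none was a repeat of the other, and their counts were summed. The 6 lines were compared with edgeR 4.0.16 in R 4.3.3 (quasi-likelihood test, TMM, filterByExpr with a minimum count of 10 and a total of 15), with Benjamini-Hochberg adjustment over 17468 genes. A gene that reached the filter's minimum in every line of a single group passed through that group, so its test is no independent support. Among the called partner genes this holds for Colgalt2, P3h2, Itga11, Ogn and Prelp. Among the called markers it holds for Fap, Sox17, Cubn, Myh11, Tie1, Sox9, Matn1 and the totipotency genes. The standard error is the log2 fold change divided by the square root of F. Spreads between lines are the highest over the lowest value after 0.1 CPM was added. Lengths are unions of exons. The procedure was tested on simulated data. All members were described, and each partner list gave up to 3 called genes in each direction, those of largest change. The members and lists were chosen with earlier results of these data known. No member had a near-identical gene by blastn 2.17.0 (at least 95% identity over 50% of its longest transcript). Exons of 12 members overlapped other genes, 2 of them by at least 200 bases (Col4a3 and Col9a3). Alternatives were limma-voom (limma 3.58.1), DESeq2 1.42.0, other scaling factors and filters, each technical replicate alone, 12 separate libraries, a replicate block, a threshold of 0.01 and leaving out each line.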

Additional observations from a re-analysis of the deposited data

How the results depend on the processing

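The number of collagens called higher, 20 of 38, was 14 to 20 when each line was left out in turn, 12 with the replicate block, 9 at an adjusted p under 0.01 and 18 to 26 under the other alternatives. By class, leave-one-out gave 3 to 7 fibrillar, 4 to 4 basement membrane and 6 to 9 other collagens. The replicate block gave 3 fibrillar and 5 other collagens, and the threshold of 0.01 gave 2 fibrillar, 2 basement membrane and 5 other collagens. Collagens called lower were 0 in each leave-one-out fit and 1, Col9a3, with 12 separate libraries. Of the 20 called, 12 kept the call in all 6 leave-one-out fits and 9 in every alternative that tested them. Of these 9, all but Col6a6 were tested in each of the 18 alternatives. Counts for the partner and marker lists with each line left out were added after the data were seen. The count of all genes higher in TPS lines was 2509, and that of all genes lower in TPS lines was 1282. With each line left out, these were 1617 to 2234 and 493 to 1047. They were 4067 and 3610 with 12 libraries and 873 and 258 at 0.01. Genes called lower were 745 without composition factors and 721 with the block. Of all calls, 66.2% were higher in the main analysis, 80% without composition factors and 53% with 12 libraries. The median of all genes was 0.14 without factors, 0.20 in DESeq2 and 0.18 without a filter.

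The main fit did not pair lines by number. Same-numbered lines deviated with a mean correlation of -0.032 (-0.139 to 0.0239), against 0.0166 (-0.225 to 0.23) for other pairs. So few correlations cannot show whether same-numbered lines share an origin or a batch. The block removed the calls of Col1a2, Col5a1, Col5a2, Col6a2, Col8a2, Col12a1, Col23a1 and Col25a1. Among the named partner genes, it removed those of Adamts2, Tll1, Mmp8, Itga11, Ddr2 and Lamb1.

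Signs reversed for 4 collagens that were not called. Leave-one-out gave -0.15 to 0.98 for Col11a2, -0.09 to 0.10 for Col17a1, -0.01 to 0.27 for Col18a1 and -0.07 to 1.17 for Col26a1. Col11a2 was at -0.28 with technical replicate 1 alone, -0.15 without EPS line 1 and -0.03 without TPS line 3. Col17a1 was at -0.29 with technical replicate 1 alone, -0.02 with 12 libraries and without a filter, -0.00 in DESeq2 and between -0.09 and -0.00 without EPS line 1 (-0.05), EPS line 3, TPS line 1 or TPS line 2 (-0.03). Col26a1 was at -0.02 with technical replicate 1 alone, -0.01 without EPS line 2 and -0.07 without TPS line 2. Col18a1 was at -0.01 without EPS line 1. The cause was not tested. The 6 untested collagens had at most 44 counts in a line and did not reach the filter's minimum in 3 lines. How their values would stand at a greater depth was not tested.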
